A study of Mus musculus with 8 samples.

Results

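Tgm2 encodes tissue transglutaminase and was followed here as the single row of the deposited table that carries this symbol (ENSMUSG00000037820), 1 of 22200 genes. Its values were read in each of the 8 libraries, together with its rank among all genes of the same library. The libraries were made from immortalised mouse embryonic fibroblasts (MEFs) on a C57BL/6 background. All 8 carry the genotype label TAF4-/-. By this label the untreated cells lack the same subunit of the general transcription factor TFIID as the treated ones. The 3 groups were untreated cells labelled 12 h (3 libraries), cells given retinoic acid (RA) for 12 h (3 libraries) and cells given RA for 72 h (2 libraries). By the methods the null line was obtained by Cre deletion of a floxed allele in a MEF line, and RA was all-trans RA, so the libraries describe a single line. No untreated library at 72 h was among the samples, and RA and the longer time cannot be told apart in any comparison of 72 h with untreated cells. The labels do not say whether replicates were separate cultures, and the p-values then measure only the spread between these libraries, which may be technical.

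Tissue transglutaminase is an enzyme that, when bound to calcium, joins glutamine and lysine side chains of proteins and so cross-links them, or attaches polyamines to glutamines. When bound to GTP it acts instead as a G protein, and at the cell surface it binds fibronectin and integrins independently of its enzymatic activity. In fibroblasts it is known as a protein of adhesion, matrix assembly and wound repair. RA acts through the RAR and RXR nuclear receptors, and Tgm2 is one of the classical genes that respond to it in many cell types.

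On the mm9 assembly Tgm2 lies on chromosome 2, from 157942138 to 157972172 on the minus strand, with 4 annotated transcripts. The longest has 13 exons and 3596 bases. The labels describe tag profiling, in which a short tag next to the DpnII site (GATC) nearest to the poly(A) tail is read. The sequence where such a tag of the longest Tgm2 transcript would lie is shown, because reads of that transcript would then come from this place. The last sites of the other annotated transcripts, and tags from earlier DpnII sites, were not looked at. The longest transcript holds 14 such sites. The last begins at base 3449, within the 3′ UTR and 148 bases from the transcript end, at chr2:157942265-157942285 on the minus strand of mm9. With the DpnII site in capitals and the 17 bases that follow it in lower case, the sequence reads as follows.

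Tgm2 tag at the last DpnII site: GATCgcaccgtgagccgtgct

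This sequence was found in the annotated protein-coding transcripts of 0 other genes on either strand. The study's methods describe reads from fragmented RNA in place of tags, and the deposited table holds no read positions, so whether the values count this tag was not tested. Across the whole transcript, 197 of its 3579 windows of 18 bases (5.5%) also occur in a transcript of another gene on either strand. Of the windows in question, 162 are found in Rprd1b, a regulator of RNA polymerase II that overlaps Tgm2 on the opposite strand.

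The measurements are normalised reads per gene, as deposited after quantile normalization. The columns of all libraries hold identical sorted values, with a sum of 9442018.6 and a median of 20.75 in each, so the depth of the libraries is unknown and no counting interval is given. The libraries also differed within groups along 1 shared axis, with 50.1% of the variance that the tested genes had within groups. Its first side (side 1) held replicates 1 and 2 of the untreated group, replicate 3 of the 12 h group and replicate 2 of the 72 h group. Its second side (side 2) held the remaining libraries, which are replicate 3 of the untreated group, replicates 1 and 2 at 12 h and replicate 1 at 72 h. The sides were defined from these data, Tgm2 included, and the labels name no batch. Taf4a, under which the targeted gene is listed, had between 984 and 1449 normalised reads in the 8 libraries. Which exons were deleted is not given in the sources used here, so this level does not check the genotype. The titles of the libraries carry cl1. In the study C1 names the parent line with a floxed Taf4 allele, which expresses TAF4, and C3 names the null line. Whether cl1 stands for C1 is not given in the sources used here. The study's methods name C3 cells as the source of the RNA for its RNA-seq, RA treatment included. Its list of RA-regulated genes is also titled as from C3 cells. Both go with the genotype label, which was followed. Of 10 fibroblast markers 7 were well above the table's floor, with vimentin (Vim) at 82396 normalised reads or more, while Thy1, Dcn and Lum stayed below 10 in all libraries. Their summed level was 234649.8 to 255402 in untreated cells, 235818 to 246402 at 12 h and 215064 to 221059.7 at 72 h. The summed levels of 6 endothelial markers (56.1 to 107), 6 macrophage and blood cell markers (45.2 to 90.5) and the 5 of 6 epithelial markers present in the table (21.8 to 37.8) were far lower.

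Tgm2 was at a moderate level in untreated cells and among the highest transcripts after RA. In untreated replicates 1, 2 and 3 it had 328, 338 and 572 normalised reads. After RA for 12 h the corresponding values were 4048, 4376 and 3705. The 2 libraries at 72 h had 7256 and 5884. The 3 groups did not overlap: the lowest 12 h library was 6.47 times the highest untreated one, and the lowest 72 h library was 1.34 times the highest 12 h one. Group means were 412.7 ± 138.4 (SD, n = 3), 4043 ± 335.7 (n = 3) and 6569.9 ± 969.8 (n = 2). The coefficient of variation was widest in untreated cells at 33.5%, where replicate 3 stood above the other two, against 8.3% at 12 h and 14.8% at 72 h. Within each group, the libraries on side 2 of the shared axis had more Tgm2 than those on side 1. In bulk libraries such as these, more cells that express a gene and more RNA per cell cannot be told apart.

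**Figure D1:**
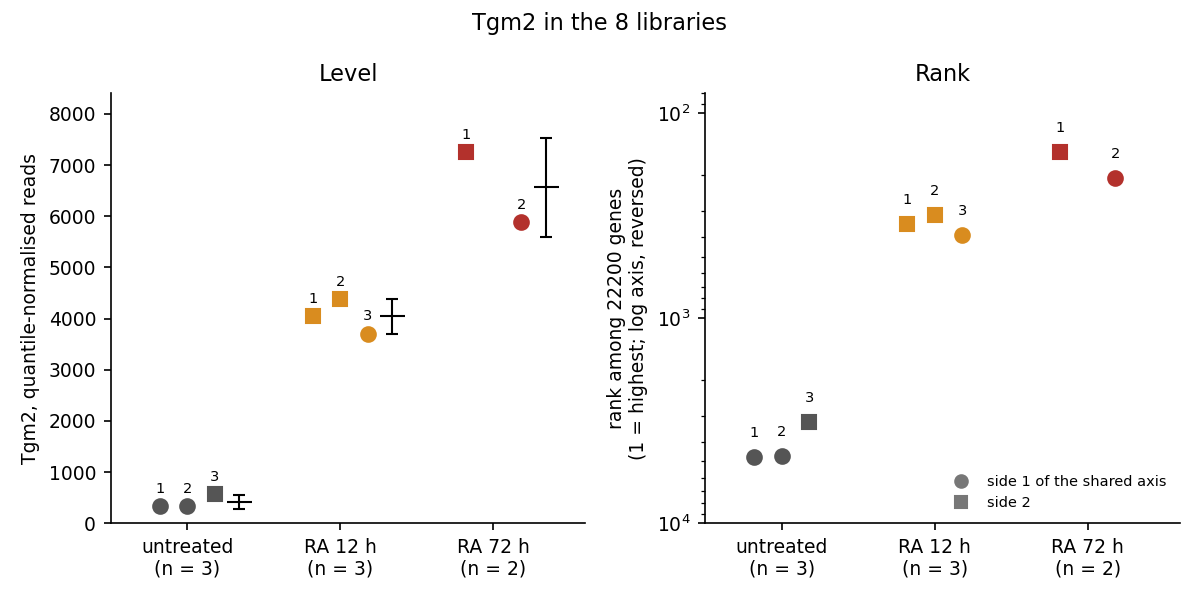
Tgm2 in each of the 8 libraries, as quantile-normalised reads on a linear axis (left) and as its rank among 22200 genes on a reversed log axis (right). Numbers are replicate numbers, circles and squares are the 2 sides of the shared axis, and black bars give the group mean ± SD; the untreated libraries lie between 328 and 572, the 12 h libraries between 3705 and 4376 and the 72 h libraries at 5884 and 7256.

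The rank of Tgm2 moved with its level, as it must where all libraries hold the same sorted values. Counted from the highest value, Tgm2 ranked 4770, 4676 and 3195 of 22200 genes in untreated replicates 1, 2 and 3. At 12 h it ranked 347, 314 and 393, and at 72 h 155 and 206. It therefore lay above 78.5% to 85.6% of the genes in untreated cells, 98.2% to 98.6% at 12 h and 99.1% or more at 72 h. Expressed per kb of the longest annotated transcript, for the 21465 genes with an annotated length, the ranks were lower but ran in the same order, from 3605 to 5044 in untreated cells to 617 to 717 at 12 h and 371 and 461 at 72 h. Length is the fitting scale for reads of fragmented RNA and not for tags, so both ranks are given.

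The increase in Tgm2 was tested in a fit across all 12673 genes with a mean of at least 10 normalised reads. Calls required an adjusted p below 0.05 together with a change of 2-fold or more. In the comparison of RA 12 h with untreated cells 1.42% of the tested genes were called, 1.11% higher and 0.308% lower. Tgm2 was among those called higher, with a log2 change of 3.34 ± 0.18 (SE; limma adjusted p 2.64e-07), which is 10.1-fold with a 95% interval of 7.73 to 13.2. Ordered by log2 change, its rise was at rank 6 of the 12673 genes. Per kb of transcript it gained 1009.5 normalised reads on average, the rank 37 gain of 12503 genes with a length, and of the 140 genes called higher that have one it was at rank 11 by its mean level per kb at 12 h. The changes within side 1 and side 2 of the shared axis were 3.47 and 2.88 on the log2 scale. Each comparison within a side includes a group with only a single library, so these values are descriptive.

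At 72 h the difference from untreated cells was larger still. Tgm2 was called higher with a log2 change of 4.03 ± 0.20 (SE; limma adjusted p 4.96e-08), or 16.3-fold with a 95% interval of 12.1 to 22, in a comparison where 3.67% of the tested genes were called, 2.15% higher and 1.52% lower. The rise was at rank 7 of 12673, and the mean gain per kb, 1712 normalised reads, at rank 32 of 12503. By mean level per kb at 72 h it was at rank 10 of 271 genes called higher. Within the sides, again with groups of a single library, the changes were 4.14 and 3.66. Both calls held in each of the 15 alternatives tried, where the change at 12 h ranged from 3.19 to 3.60 and that at 72 h from 3.88 to 4.29, both highest without untreated replicate 3. The permutation test of a single value gave the smallest p it can reach: the exact two-sided test of the 5 RA libraries against the 3 untreated ones gave 0.0357 (difference of mean log2 values 3.61, all 5 above all 3), and the exact permutation of the F statistic over all 560 assignments to the 3 groups gave 0.00357.

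On the log2 scale most of the rise was present at 12 h, when the log2 change was 82.7% of that at 72 h. On the scale of levels the later share was larger, but most of the gain was again present at 12 h. The mean gain per kb over untreated cells was 1009.5 normalised reads at 12 h and 1712 at 72 h. From 12 h to 72 h the mean gain per kb was 702.7. Both 72 h libraries lay above all 3 libraries at 12 h, and the log2 difference was 0.70 ± 0.20 (SE), or 1.62-fold with a 95% interval of 1.20 to 2.18. In this comparison 1.5% of the tested genes were called, 0.765% higher and 0.734% lower, and Tgm2 was not called (limma adjusted p 0.0609, unadjusted p 0.00402). The step from 12 h to 72 h missed both the adjusted p and the 2-fold minimum, with an interval that lies above 1-fold and runs past 2-fold. The adjusted p was below 0.05 without untreated replicate 2 (0.0493) or untreated replicate 3 (0.00111), and 0.335 without RA 72 h replicate 1, with a log2 difference between 0.54 and 0.85 over the alternatives. Within sides 1 and 2, again with groups of a single library, the log2 difference was 0.67 and 0.79.

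The other members of the transglutaminase family were low in all 8 libraries. The family holds the enzymes Tgm1 to Tgm7, the clotting factor subunit F13a1 and the inactive red cell membrane protein Epb42, listed as Epb4.2, and all 9 were in the table. F13a1 was the highest of the others, with 18.1 to 32.5 normalised reads in untreated cells, 13 to 27.8 at 12 h and 21.2 in both 72 h libraries. Its groups overlapped, with log2 changes of -0.27 ± 0.31 at 12 h and -0.17 ± 0.35 at 72 h (SE; limma adjusted p 0.709 and 0.82). The other 7 members lay between 1 and 12.5 normalised reads in every library, against a table median of 20.75, and did not pass the filter on low values, so they were not tested. They include Tgm1, which builds the cornified envelope of the epidermis, and Tgm4, the enzyme of the prostate.

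Per kb of longest transcript, Tgm2 rose from a mean of 115 normalised reads in untreated cells to 1124 at 12 h and 1827 at 72 h, while F13a1 had means of 6.37, 5.32 and 5.48. Tgm2 made up 82.6%, 82.8% and 86.5% of the family's summed level per kb in the untreated libraries, and between 98.1% and 99.1% in the 5 RA libraries. The other 8 members together came to 15.8 to 24.8 normalised reads per kb in all 8 libraries. Members other than Tgm2 and F13a1 lay near the table's floor, and length is not the fitting scale for tags, so the shares of Tgm2 are approximate.

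**Figure D2:**
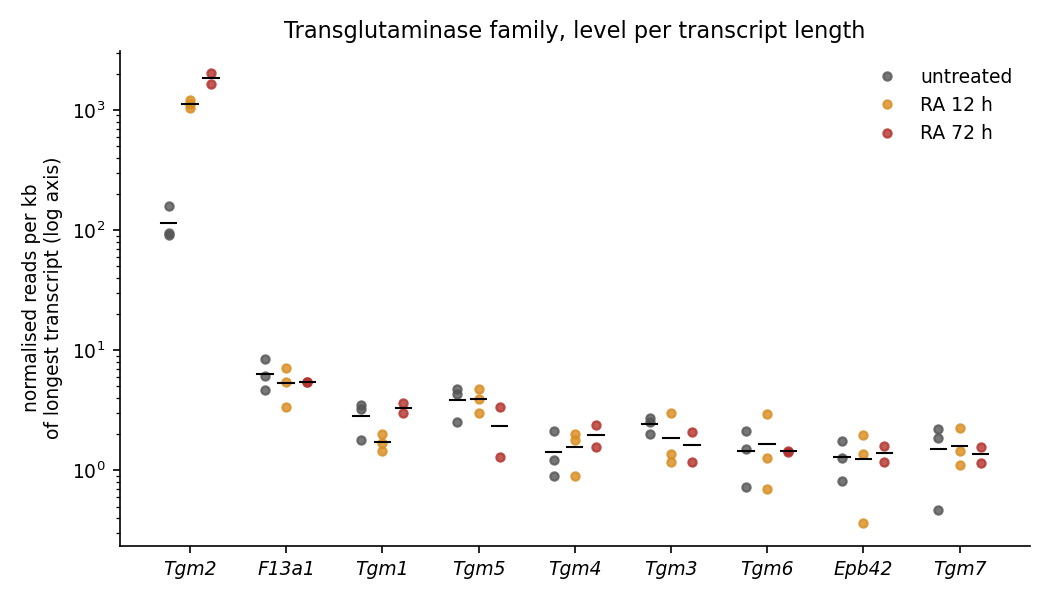
Levels of the 9 transglutaminase family members as normalised reads per kb of the longest annotated transcript, on a log axis, with 1 point per library and a black bar at each group mean. Tgm2 stands at 115, 1124 and 1827 on average in untreated, RA 12 h and RA 72 h cells, and F13a1, the next member, at 6.37, 5.32 and 5.48.

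The 5 lysyl oxidases, copper enzymes that cross-link collagen and elastin by another chemistry, were all expressed and tested. Loxl2 was called higher at both times and the others at neither. This is 1 of the 5, beside 1.11% (12 h) and 2.15% (72 h) of all tested genes called higher. At an unadjusted p below 0.05 there were 1 of the 5 at 12 h, 3 at 72 h and 1 between the 2 times. The shares of all tested genes were 16.3%, 23.9% and 18.9%. Loxl2 had 58.4, 56.8 and 63.6 normalised reads in untreated replicates 1 to 3, then 277, 247 and 254 at 12 h and 296 and 279 at 72 h. The groups were apart, with log2 changes of 2.10 ± 0.13 and 2.25 ± 0.14 (SE; limma adjusted p 5.04e-07 and 3.89e-07), and its 72 h libraries lay just above those at 12 h (log2 difference 0.15 ± 0.14, adjusted p 0.63). Per kb it remained far below Tgm2, at a mean of 55.6 normalised reads at 72 h. Loxl1, which acts on elastin, was the highest of the 5 with a mean of 2758 normalised reads per kb in untreated cells and 4148 at 72 h, above Tgm2 at all times. Its log2 change of 0.59 ± 0.13 at 72 h passed the adjusted p (0.0076) and stayed under 2-fold, as did that of Lox (-0.57 ± 0.15, adjusted p 0.0225). Loxl3 and Loxl4 had log2 changes between -0.14 and 0.34, with adjusted p of 0.218 or more. The median of the list was 0.16 at 12 h and 0.34 at 72 h, beside -0.02 over all tested genes in both comparisons.

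The partners of Tgm2 at the cell surface make a list of 15 genes, of which 14 were tested and only the integrin subunit Itgb3 was below the filter. Of the 14, 0 were called by limma in any comparison, where 1.42% (12 h), 3.67% (72 h) and 1.5% (72 h against 12 h) of all tested genes were called, so that with so few genes 0 is near the background. Fn1, the fibronectin to which Tgm2 binds, had 36832 to 43233 normalised reads in the 8 libraries and log2 changes of -0.15 ± 0.12 and -0.08 ± 0.13 at 12 h and 72 h (SE). Itgb1, the main integrin beta subunit of fibroblasts, had 3428 to 4053, with log2 changes of -0.10 ± 0.09 and 0.05 ± 0.10. The syndecan Sdc4 had log2 changes of 0.14 ± 0.12 and 0.42 ± 0.14, the latter with an adjusted p of 0.0681. At 72 h Mfge8 (0.39 ± 0.10, adjusted p 0.0239) and the PDGF receptor Pdgfrb (0.51 ± 0.12, adjusted p 0.0132) passed the adjusted p alone. At an unadjusted p below 0.05 there were 3 of the 14 at 12 h, 5 at 72 h and 2 between the 2 times, beside 16.3%, 23.9% and 18.9% of all tested genes. The median log2 change was 0.12 at 12 h and 0.05 at 72 h.

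Transcripts of proteins described as substrates of cross-linking by Tgm2 moved in both directions. Of 14 on the list 10 were tested. At 12 h 0 were called by limma, with 3 passing the adjusted p alone, and 5 at an unadjusted p below 0.05 (16.3% of all tested genes). At 72 h 1 was called higher and 2 lower, beside 2.15% and 1.52% of all tested genes. At an unadjusted limma p below 0.05 there were 7 of the 10 at 72 h and 5 between the 2 times. The shares of all tested genes were 23.9% and 18.9%. The basement membrane protein nidogen, Nid1, had 2892, 3058.5 and 2371 normalised reads in untreated cells, 4445, 4087 and 4768.5 at 12 h and 5981 and 7665 at 72 h. These groups were apart, with a log2 change of 0.68 ± 0.13 at 12 h (adjusted p 0.00545, under 2-fold) and 1.30 ± 0.14 at 72 h (SE; adjusted p 4.36e-05). Collagen III, Col3a1, went the other way at the later time. It had 21429, 19989 and 22110 normalised reads in untreated cells, 15625, 19652 and 17474 at 12 h, and 7665 and 8071 at 72 h. The log2 change was -0.27 ± 0.11 at 12 h and -1.43 ± 0.13 at 72 h (SE; adjusted p 8.25e-06). Col7a1, the collagen of anchoring fibrils, fell from a mean of 82.2 normalised reads to 25.9 at 72 h, a log2 change of -1.63 ± 0.19 (adjusted p 0.000101). In the comparison of 72 h with 12 h 4 of the 10 were called lower and 0 higher, beside 0.734% and 0.765% of all tested genes. They were Col3a1, Col7a1, osteopontin (Spp1) and the galectin Lgals3, whose call was lost without RA 12 h replicate 3. Spp1 had means of 5524, 10803 and 4189 normalised reads in untreated, 12 h and 72 h cells. Its log2 change from untreated cells was 0.97 ± 0.15 at 12 h (SE; adjusted p 0.00182, just under 2-fold, and called at 1.12 without untreated replicate 3 or RA 12 h replicate 3) and -0.39 ± 0.17 at 72 h (adjusted p 0.187), and its log2 difference between the 2 times was -1.36 ± 0.17 (adjusted p 0.000418). The list's median was 0.00 at 12 h and -0.33 at 72 h.

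The lists around the other activities of Tgm2 showed 0 calls by limma in any comparison, near the background of 1.42% to 3.67% for lists this short. Of 9 genes of its G protein and redox biology 6 were tested, with medians of -0.09 at 12 h and -0.11 at 72 h. They include the alpha1-adrenergic receptors that Tgm2 couples to a phospholipase, and thioredoxin (Txn1), which can reduce Tgm2 and thereby activate it. The receptor Adra1d (0.69 ± 0.14, adjusted p 0.00449) and the phospholipase Plcd1 (-0.60 ± 0.16, adjusted p 0.028) passed the adjusted p alone at 72 h. Txn1 had log2 changes of 0.07 ± 0.10 and 0.08 ± 0.12. All 9 genes that make, oxidise or control polyamines were tested, with medians of 0.04 and -0.08. The spermine oxidase Smox reached 0.75 ± 0.16 at 72 h (adjusted p 0.00644) and the decarboxylase Amd1 -0.42 ± 0.11 (adjusted p 0.0191), both under 2-fold. At an unadjusted p below 0.05, 3 of the 6 and 2 of the 9 were counted at 12 h, 2 and 3 at 72 h, and 1 and 2 between the 2 times, beside the same 16.3%, 23.9% and 18.9% of all tested genes.

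Among 12 genes known to regulate Tgm2, 11 were tested and Il6 was below the filter. Rarb, itself a target of RA, was called higher at both times, with 46.6, 31.1 and 58.4 normalised reads in untreated cells, 124, 175 and 159 at 12 h and 242 and 205 at 72 h. Its log2 changes were 1.76 ± 0.22 and 2.31 ± 0.24 (SE; adjusted p 0.00021 and 3.44e-05). The TGF-beta effector Smad3 was called higher at 72 h (1.12 ± 0.13, adjusted p 8.34e-05) and passed the adjusted p alone at 12 h (0.87 ± 0.12, adjusted p 0.000473). Nfkbia, the inhibitor of NF-kB, had log2 changes of -0.51 ± 0.09 and -0.67 ± 0.10, with adjusted p of 0.00509 and 0.000931 but less than 2-fold. The receptors Rara, Rarg, Rxra and Rxrb were all expressed and not called, with log2 changes from -0.49 to 0.28. Of the 11 tested, 1 was called higher at 12 h and 2 at 72 h, beside 1.11% and 2.15% of all tested genes. At an unadjusted p below 0.05 there were 4 of the 11 at 12 h, 5 at 72 h and 3 between the 2 times. The shares of all tested genes were 16.3%, 23.9% and 18.9%. The median was -0.03 at 12 h and 0.02 at 72 h.

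Of 10 genes of the retinoid response 5 were tested. Among those below the filter, Cyp26a1, Crabp1, Stra6 and Stra8, all known RA targets in other cells, had 7.25 normalised reads or fewer in each library. The RA-degrading enzyme Cyp26b1 rose more than Tgm2, with log2 changes of 5.99 ± 0.20 and 6.51 ± 0.23, and the retinaldehyde reductase Dhrs3 by 3.46 ± 0.16 and 4.60 ± 0.18. Crabp2, which carries RA to its receptors, was called at 12 h (1.53 ± 0.09, adjusted p 5.9e-07) and had a log2 change of 0.65 ± 0.11 at 72 h. In all, 4 of the 5 were called higher at 12 h and 3 at 72 h, beside 1.11% and 2.15% of all tested genes. The comparisons of 12 h and of 72 h with untreated cells share the untreated libraries.

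**Figure D3:**
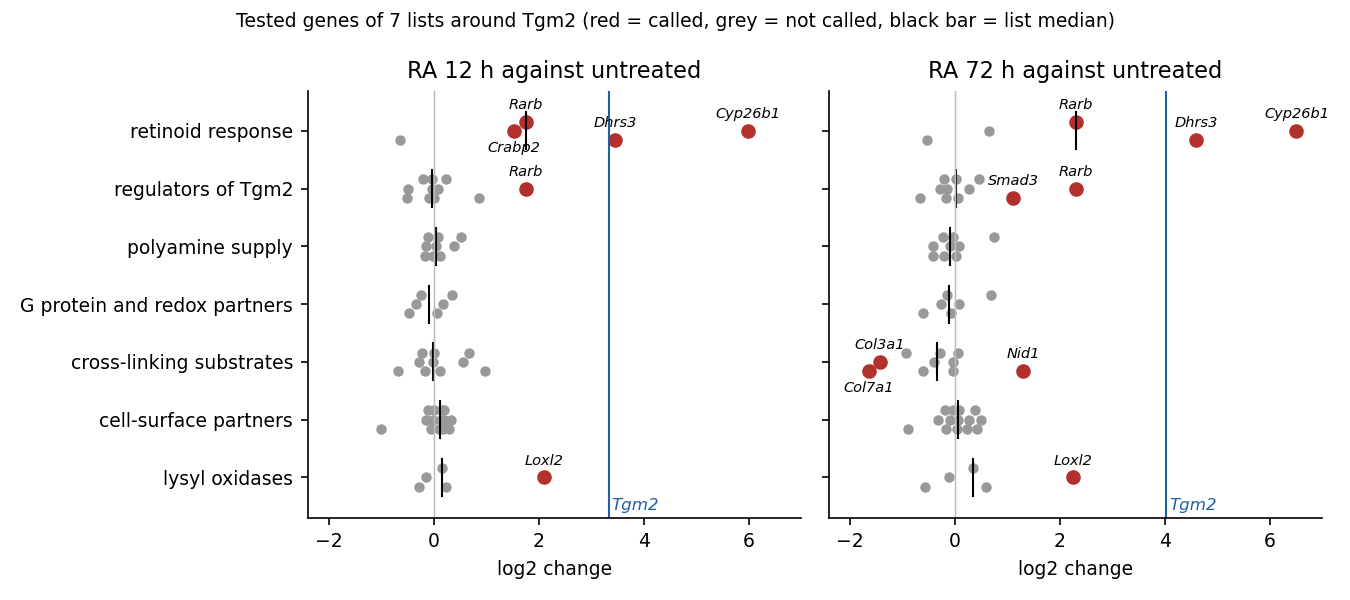
Log2 changes of the tested genes of 7 lists around Tgm2, at RA 12 h (left) and RA 72 h (right) against untreated cells, where each point is 1 gene, red points are called, grey points are not, and black bars are list medians. The blue line marks Tgm2 at 3.34 and 4.03; of the genes shown, Cyp26b1 (5.99 and 6.51) and Dhrs3 (3.46 and 4.60) lie beyond it.

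The genes whose pattern was most like that of Tgm2 were found by the Euclidean distance between log2 values centred on each gene's mean over the 8 libraries, among 12672 other tested genes whose median distance was 5.11. The nearest was 6330406I15Rik, which RefSeq lists as Medag, a gene tied to adipocyte differentiation, at a distance of 0.80. It had 67.6, 64.2 and 99.2 normalised reads in untreated cells, 510, 556 and 444.5 at 12 h and 1011 and 826 at 72 h. As in Tgm2, untreated replicate 3 was the highest untreated library, RA 12 h replicate 3 the lowest at 12 h and RA 72 h replicate 1 the higher at 72 h. A choice by distance over these same libraries favours such a match. In both genes the order also followed the sides of the shared axis, with side 2 higher in each group. Gdpd5, a glycerophosphodiester phosphodiesterase, followed at 0.85, with 43.2, 59.9 and 72.4 normalised reads, then 454, 483 and 451, and then 619 and 571. The other 8 were Dhrs3 (1.37), the matrix protein Fbln7 (1.57), the methyltransferase Inmt (1.58), Ttc9 (1.98), the bombesin-family receptor Grpr (2.06), AL669857.7 (2.07), the lipid transfer protein Pitpnc1 (2.12) and Loxl2 (2.16). The next gene after them was at 2.21, so the list has no natural end.

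All 10 had higher values in every RA library than in every untreated one, as a short distance from Tgm2 requires, and they lie on 9 chromosomes. Inmt, AL669857.7, Grpr and Ttc9 had untreated means of 1.75, 2.04, 5.04 and 8.71 normalised reads, so their changes depend on the pseudocount. They passed the filter on the mean of all libraries only through their RA libraries, so their place in this list is in part set by the filter. The step from 12 h to 72 h also differed among them. Fbln7 was called higher at 72 h than at 12 h (log2 difference 1.70 ± 0.18, adjusted p 0.000151), as was Dhrs3 (1.14 ± 0.18, adjusted p 0.00249), while 6330406I15Rik (0.87 ± 0.18, adjusted p 0.0139) passed the adjusted p alone. Without RA 72 h replicate 2, 6330406I15Rik was called too (1.01, adjusted p 0.0484). Grpr (0.54 ± 0.32), Gdpd5 (0.36 ± 0.18), Loxl2 (0.15 ± 0.14), Inmt (0.02 ± 0.37), Pitpnc1 (-0.06 ± 0.20), Ttc9 (-0.14 ± 0.25) and AL669857.7 (-0.79 ± 0.37) were not called.

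**Figure D4:**
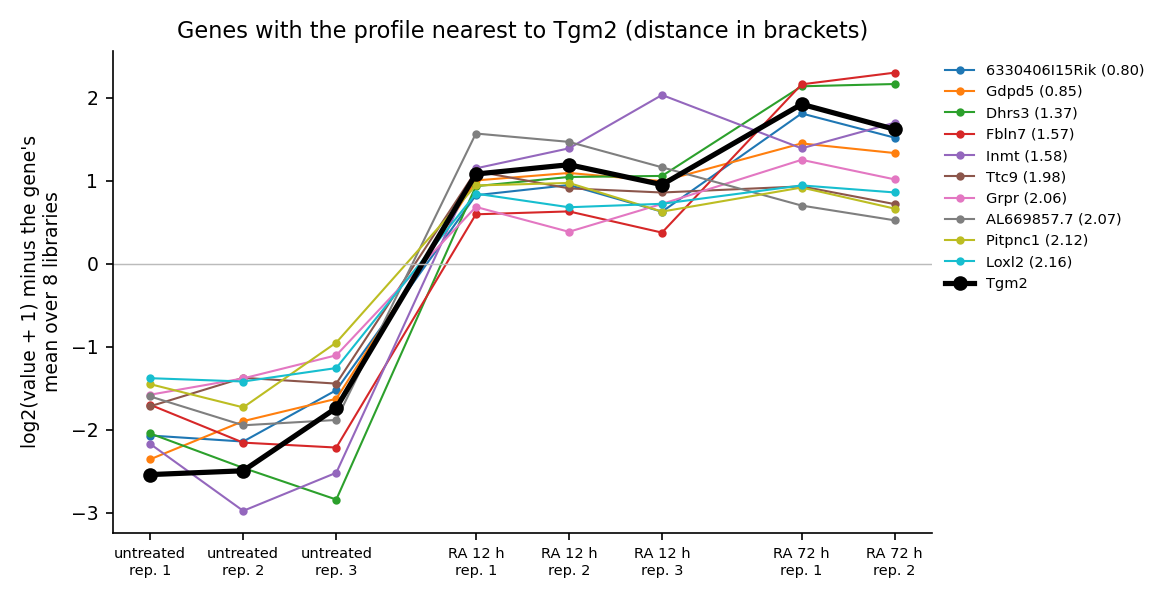
Log2(value + 1) of Tgm2 (black) and of the 10 genes nearest to it, each centred on its own mean over the 8 libraries, with the distance from Tgm2 in brackets; lines only join the points of 1 gene, and replicates have no order. All 11 genes lie below 0 in the 3 untreated libraries and above 0 in the 5 RA libraries.

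The genes around Tgm2 were looked at next, 5 annotated genes of the table on each side. Of these 10, 4 passed the filter and 0 were called by limma in any comparison, which is near the background of 1.42% to 3.67% for 4 genes. At an unadjusted p below 0.05 there was 1 at 12 h (Ctnnbl1), 0 at 72 h and 1 between the 2 times (Ctnnbl1), beside 16.3%, 23.9% and 18.9% of all tested genes. Rprd1b, which overlaps Tgm2 by 15896 bases on the opposite strand, had 228 to 262 normalised reads in untreated cells, 266 to 284 at 12 h and 268 and 313 at 72 h. Its log2 changes were 0.19 ± 0.12 and 0.26 ± 0.13 (SE; adjusted p 0.448 and 0.247). An annotated exon of Rprd1b and one of Tgm2 share 178 bases (157957067 to 157957244), and the sources do not say whether reads were counted by strand, so reads in this stretch cannot be assigned to one gene. The adjoining gene on that side, listed as 2610036D13Rik and annotated as Tti1, had log2 changes of 0.14 ± 0.15 and -0.17 ± 0.17. Ctnnbl1, a splicing-associated protein, had 0.53 ± 0.22 and -0.15 ± 0.25, and on the other side the lipopolysaccharide-binding protein Lbp had 0.41 ± 0.25 and 0.47 ± 0.28. The 6 untested neighbours, Nnat, Vstm2l, D630003M21Rik, 1700060C20Rik, Bpi and SNORA71, had 11.5 normalised reads or fewer in every library.

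**Figure D5:**
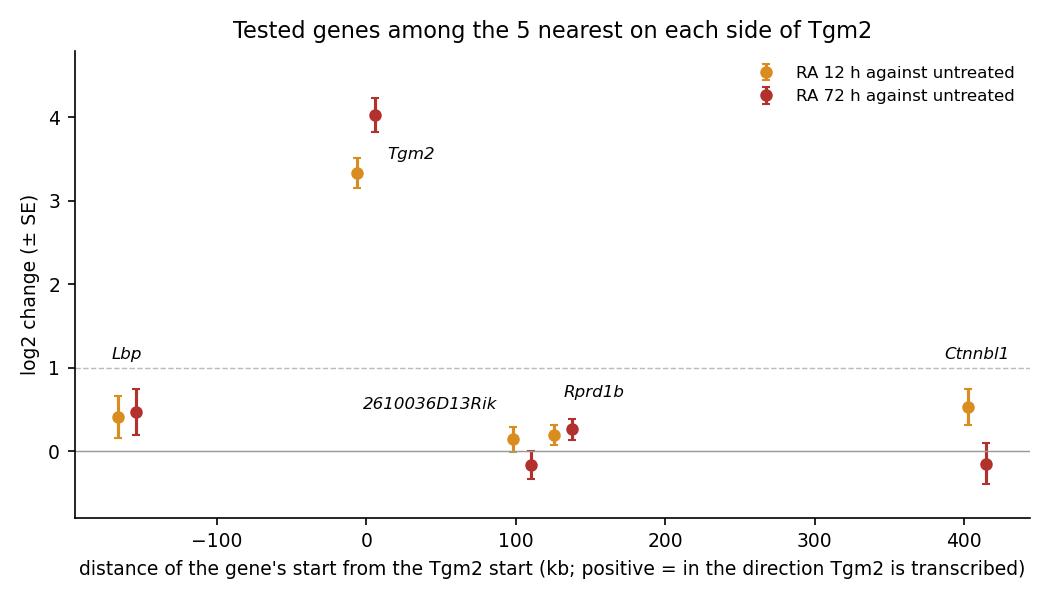
Log2 change ± SE of Tgm2 and of the 4 tested genes among its 5 nearest neighbours on each side, against the distance of each gene's start from that of Tgm2 in kb; the dashed line is 2-fold, and Rprd1b and 2610036D13Rik, which start at almost the same place, are drawn apart. Tgm2 stands at 3.34 and 4.03, and the neighbours between -0.17 and 0.53.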

How the data were processed

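RNA of 8 libraries was measured, and the authors deposited 1 table with decimal commas that gives normalised reads for each Ensembl gene. Its unit is none of the usual ones, because the deposited columns hold identical sorted values whose steps are multiples of 0.125, as quantile normalization over 8 libraries gives. The labels describe DpnII tags and reads of 18 bases, whereas the study's methods describe fragmented RNA, Tophat, Cufflinks and a count-based normalization on mm9. The methods give another late time than 72 h, while the study's results text gives 72 h as the labels do, and the labels were followed. The design text counts 7 samples, and 8 were listed and used. Deposited ratios of group averages hold the authors' own comparisons and were not used, and 1 line without a gene was left out.

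After a log2(value + 1) transformation, genes averaging 10 or more over the libraries were kept, and the 3 groups were fitted with limma 3.58.1 (R 4.3.3) with a variance trend and Benjamini-Hochberg adjustment within each comparison (two-sided; called at adjusted p below 0.05 and at least 2-fold). The pipeline was tested on simulated data with independent noise for each gene and library, which lack the shared axis of the real libraries. The simulation therefore does not show how calls behave along that axis. Exact permutation tests used scipy 1.17.1. Coordinates, transcripts and lengths came from the annotation of the same mm9 assembly, where 21465 of 22200 identifiers (96.7%) were found. The genes named were Tgm2, the genes of hand-written lists (its family, other cross-linking enzymes, partners, substrates, polyamine genes, regulators, retinoid genes and cell type markers), 5 neighbours on each side, the 10 genes nearest by distance, and Taf4a. Tgm2 and the lists were chosen with earlier results of these data known. The sequence at the DpnII site was read from the annotated transcript and checked against the genome. A promoter sequence was not used here. The values of 2 genes of the lists are not reported here.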

Additional observations from a re-analysis of the deposited data

Results flagged for a closer look

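Levels at RA 72 h and RA 12 h differed for 6 of the 130 named genes followed, not all of which passed the filter. The test was the limma comparison of RA 72 h with RA 12 h, in which 1.5% of all tested genes were called. Of the genes near Tgm2 in profile, Fbln7 was higher at 72 h by 1.70 on the log2 scale and Dhrs3 by 1.14. Of the listed substrates, Col7a1 (-2.18), Spp1 (-1.36), Col3a1 (-1.15) and Lgals3 (-1.05) were lower. The call of Lgals3 was lost without RA 12 h replicate 3 (-1.0, just under 2-fold). Tgm2 itself (0.70) was not among them. RA and time cannot be told apart here, and the causes were not tested. Groups of 3 and 2 libraries were too small for the test of a single outlying library.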

How the results depend on the processing

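The alternatives were a pseudocount of 10, no filter, each library left out, a replicate block, a term for the side of the shared axis, median-of-ratios rescaling, no variance trend, a fit of only the 2 groups compared and, for counts, no fold minimum. Tgm2 kept its call at 12 h and 72 h in all 15, and its log2 change without 1 library ran from 3.19 to 3.60 and from 3.88 to 4.29. At 72 h against 12 h it ran from 0.54 to 0.85 and was called in none, but the adjusted p fell below 0.05 in 4: without untreated replicates 2 or 3, with only the 2 groups (0.00223), and with the side term (5.64e-05), whose sides were taken from these data. Replicate numbers did not pair the libraries (correlations of same-numbered deviations from -0.474 to 0.42). With the replicate block the changes of Tgm2 were 3.34, 4.13 and 0.80, and 174, 430 and 172 genes were called against 180, 465 and 190, with no call of Tgm2 changed. Without a fold minimum 554, 1456 and 740 genes passed. Leaving out 1 library gave 148 to 322, 357 to 641 and 150 to 211 calls, the 322 being without untreated replicate 3. The permutation over 3 groups gave p from 0.00952 to 0.0143 without 1 library. The difference between RA and untreated libraries was then 3.47 to 3.87, with exact p of 0.0571 to 0.0952, the smallest these designs allow, so these tests could not pass. Of the named genes, Spp1 was called at 12 h without untreated replicate 3 or RA 12 h replicate 3 (1.12 each), Pdgfra at 72 h with the replicate block (1.01) or without untreated replicate 1 (1.01) or RA 72 h replicate 2 (1.06), and the endothelial marker Tek without untreated replicate 3 (1.13 and 1.42). By Pearson's r in place of distance, 2 of the 10 nearest genes were the same, 6330406I15Rik and Gdpd5. Leaving out 1 library, changing the pseudocount or rescaling turned the direction of no called change of the named genes. Library depth is unknown, so low genes have no detection limit.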

Other observations

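Ordered by Pearson's r of log2 values over the 8 libraries, which ignores the size of a change, the genes most like Tgm2 were Triobp (0.9986), 6030443O07Rik (0.9975), 6330406I15Rik (0.9971), Mcart1 (0.9968), Ankrd44 (0.9962), Dcbld2 (0.9954), Gdpd5 (0.9948), Amotl1 (0.9938), Rhoc (0.9936) and Dtx4 (0.9926). The values are a description over 8 points that fall into groups and share libraries and normalization. Most of these genes changed far less than Tgm2. Triobp, an actin-binding protein, had 576, 548 and 677 normalised reads in untreated cells, 1421, 1422 and 1338 at 12 h and 1724.5 and 1686 at 72 h, with log2 changes of 1.22 and 1.51, both called. The small GTPase Rhoc had log2 changes of 0.52 and 0.61, neither called. Amotl1, a junction-associated protein of the Hippo pathway, had changes of 0.98 and 1.05, and only the latter was called. Both calls turned on 1 library, since the change at 72 h was not called without RA 72 h replicate 1 (1.0, just under 2-fold) and that at 12 h was called without untreated replicate 3 (1.04, adjusted p 3.28e-06).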
